A study of Mus musculus with 15 samples.

Results

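S100g encodes calbindin-D9k, the small cytosolic protein that binds calcium inside the absorptive cells of the gut, and it is described here together with 6 further genes of vitamin D dependent calcium absorption, Trpv6, Atp2b1, Vdr, Cyp24a1, Rxra and Slc8a1. The 7 genes were found by their symbols among the 17752 genes listed in at least 1 of 15 RNA-seq libraries of mouse intestinal tissue. S100g was chosen on its own readout, the difference between the proanthocyanidin groups and water in these libraries, so its differences from water are given as a description with no test, and its level in each group supports nothing further. The other 6 were named for their place in the same pathway, and their relation to S100g across mice was part of the choice. That relation is therefore also given with no test.

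In transcellular calcium absorption, calcium enters the enterocyte from the lumen through the channel TRPV6, is carried across the cell by calbindin-D9k and leaves at the basolateral side through the calcium pump PMCA1, the product of Atp2b1, or through a sodium/calcium exchanger such as NCX1, the product of Slc8a1. The hormone calcitriol acts through the vitamin D receptor, the product of Vdr, which binds DNA as a partner of the retinoid X receptor encoded by Rxra. Cyp24a1 encodes the enzyme that breaks calcitriol down and is a classical target of the receptor. The active route is best known from the duodenum, whereas in the ileum much of the calcium passes between the cells.

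The libraries came from female C57BL/6 mice (C57BL/6JOlaHsd in the study's methods) labelled as 8 weeks old, with 1 library per mouse and 5 mice per group. They were gavaged every 2 days with water or with proanthocyanidins (PAC), oligomers of flavan-3-ols from grape extract, at 200 mg/kg. The PAC fractions differed in molecular weight and are labelled low PAC and high PAC, and the study's methods describe fractions of low and medium mean degree of polymerization, so "high" is the label's word here. The study's methods give a purified control diet for these mice and the ileum as the tissue, and its question was how PAC of different size act on the gut. Libraries held between 15963086 and 17903886 expected counts, listed between 16138 and 16392 genes, and 14386 genes passed the filter on low counts, among them 5 of the 7 genes described here. Trpv6 and Cyp24a1 did not pass it.

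The defining genes of the ileum were high in all groups. Fabp6, the ileal bile acid binding protein, lay between 4196.07 and 10619.91 FPKM (fragments per kilobase of transcript scaled to the library's mapped fragments) over the 15 mice, and Slc10a2, the ileal bile acid transporter, between 94.83 and 350.11 FPKM. Pdx1, a duodenal transcription factor, and Car1 and Aqp8, genes of the caecum and colon, had at most 2 expected counts in any library. Other genes of the caecum and colon list were expressed, among them Ang4 with a mean of 1458 FPKM, B4galnt2 with 245, Mptx1 with 92.6 and Slc26a3 with 65.6 FPKM in water mice, and the list summed to between 1012 and 2391 FPKM there, so the list as a whole was not absent. Levels of genes that vary along the small intestine differed between mice, as given with the S100g results.

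In the mouse genome build GRCm38, S100g lies at chrX:162961992-162964599 on the minus strand. It has 3 exons with 480 exonic bases, of which 237 in 2 exons encode a protein of 79 residues. The gene sits inside the span of Ctps2, a cytidine triphosphate synthase gene on the opposite strand, but the exons of the 2 genes share 0 bases. Ctps2 had between 3.33 and 5.42 FPKM over all mice, and its correlation with S100g within groups was -0.48. Trpv6 lies at chr6:41620624-41636405 (minus), Atp2b1 at chr10:98914406-99026143 (plus), Vdr at chr15:97854425-97910630 (minus), Cyp24a1 at chr2:170482708-170497145 (minus), Rxra at chr2:27676440-27762957 (plus) and Slc8a1 at chr17:81373105-81738377 (minus). Cyp24a1 shares 83 exonic bases with Pfdn4, and Slc8a1 shares 296 with an antisense transcript, AC122399.1, and 8 with Gm11096, all on the opposite strand. Because it is not stated whether reads were counted by strand, reads from these stretches could belong to either gene.

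The 250 bases before the annotated start of S100g, of Atp2b1, whose level followed S100g most closely among the 4 other genes that passed the filter, and of Trpv6, which was almost without reads, are printed 5′ to 3′ from the RefSeq promoter table for GRCm38.p6. They are chrX:162964600-162964849 (minus), chr10:98914392-98914641 (plus, the first of the starts listed for Atp2b1) and chr6:41636406-41636655 (minus). The Atp2b1 start in that promoter table lies downstream of the gene start given above. Most of the printed Atp2b1 bases therefore fall inside the gene span given above. Capitals mark the hexamers AGGTCA as well as GGGTCA as well as AGTTCA as well as GGTTCA on either strand, single binding motifs of the receptor family to which the vitamin D receptor belongs.
S100g: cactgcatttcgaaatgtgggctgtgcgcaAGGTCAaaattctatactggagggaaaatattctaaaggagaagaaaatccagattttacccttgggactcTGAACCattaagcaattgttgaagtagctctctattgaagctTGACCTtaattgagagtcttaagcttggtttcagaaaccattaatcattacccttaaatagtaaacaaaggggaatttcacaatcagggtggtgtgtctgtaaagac
Atp2b1: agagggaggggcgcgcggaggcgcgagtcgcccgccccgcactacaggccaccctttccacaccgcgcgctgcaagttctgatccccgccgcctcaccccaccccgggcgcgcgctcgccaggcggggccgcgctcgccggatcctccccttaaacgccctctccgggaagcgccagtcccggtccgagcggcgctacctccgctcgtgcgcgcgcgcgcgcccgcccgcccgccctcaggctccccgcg
Trpv6: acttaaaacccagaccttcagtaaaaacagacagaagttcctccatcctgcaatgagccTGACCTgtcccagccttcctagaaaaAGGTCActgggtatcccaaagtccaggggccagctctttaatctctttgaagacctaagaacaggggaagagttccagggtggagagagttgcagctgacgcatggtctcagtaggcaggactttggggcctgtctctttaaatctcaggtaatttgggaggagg
The S100g sequence held 3 hexamers, at bases -220 to -215 on the sense strand and at -149 to -144 and -107 to -102 on the antisense strand. The Trpv6 sequence held 2, at -191 to -186 and -165 to -160, and the Atp2b1 sequence held 0. At least 1 of these hexamers was found in 43.7% of all 32851 promoter windows of 300 bases in the table, so their presence does not set S100g apart. A pair of such hexamers in the same orientation with a spacer of 3 bases, the arrangement bound by the receptor pair, occurred in 0.0396% of windows and in 0 windows of the 6 genes found in the table. A TATAAA sequence on the sense strand, overlapping none of the hexamers, began at base 1 of the annotated S100g start and was present in 8.32% of windows. These searches used the table's full windows, which add 50 bases after the start that are not printed. S100g's full window was 41.0% G and C, Trpv6's 51.3% and Atp2b1's 79.3%, against a median of 52.7% over all windows. The matches describe these letters in these windows and not binding.

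S100g, the cytosolic calcium buffer and shuttle, was higher in most PAC mice than in water mice, the pattern for which it was chosen. In the water mice it stood at 15.12, 8.03, 11.56, 6.20 and 7.80 FPKM. The low PAC mice had 50.68, 54.75, 36.58, 30.80 and 17.33 FPKM, and the high PAC mice 75.44, 14.03, 43.96, 89.26 and 140.40 FPKM. All 5 low PAC mice were above the highest water mouse, and so were 4 of 5 high PAC mice, the exception being replicate 2. Means were 9.74 ± 3.59 FPKM for water, 38.0 ± 15.2 for low PAC and 72.6 ± 47.8 for high PAC (SD, n = 5 each).

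Behind these levels were 44 to 106 expected counts per water library, 121 to 389 per low PAC library and 99 to 993 per high PAC library, and the fewer the counts, the larger the relative counting error. Ordered by FPKM within a library, S100g ranked between 4608 and 7789 in water mice, between 1381 and 4205 in low PAC mice and between 512 and 4939 in high PAC mice. The fitted log2 fold change, a difference between groups on the scale of normalised counts, was 2.79 ± 0.49 (SE) for high PAC against water, a 6.90-fold difference, and 1.91 ± 0.49 for low PAC against water, a 3.76-fold difference. High PAC exceeded low PAC by 0.88 ± 0.45, with a 95% interval from -0.001 to 1.75, and by 0.48 without high PAC replicate 5, the mouse with the most S100g. Counted from the most positive log2 fold change down among the 14386 genes tested, S100g ranked 4 for high PAC against water and 5 for low PAC against water, which is the readout by which it was chosen. Both comparisons share the water mice.

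S100g also varied widely within groups. Its values spanned 2.44-fold among water mice, 3.16-fold among low PAC mice and 10.01-fold among high PAC mice. The pooled within-group SD of log2(FPKM + 0.1) was 0.88, and 1.63% of the 12420 genes with a mean of at least 1 FPKM had a larger one, the median gene having 0.18. Atp2b1 had a pooled SD of 0.31, Slc8a1 0.41, Vdr 0.16 and Rxra 0.13, so S100g was the most variable of the 5 genes that passed the filter.

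**Figure D1:**
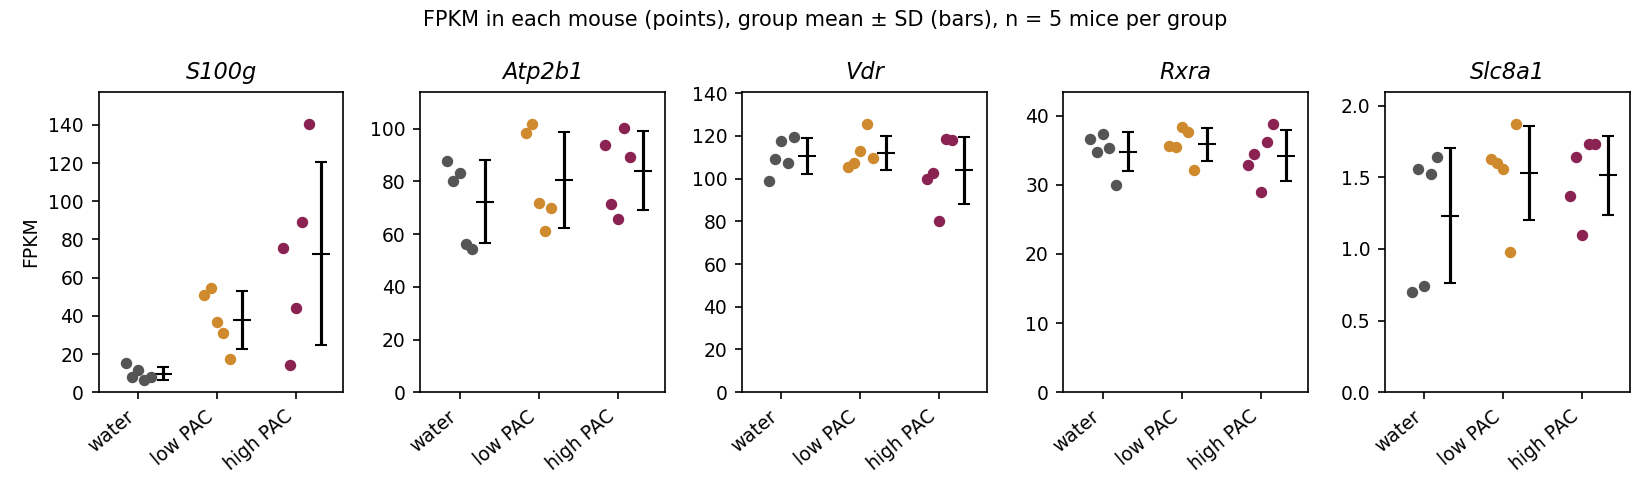
FPKM (y axis, linear from 0) of the 5 genes that passed the filter in each of the 15 mice (points) by group, with the group mean and SD as bars. S100g spreads from 6.20 to 140.40 FPKM with the water mice at the bottom, while Vdr and Rxra stay between 80.28 and 125.48 and between 28.91 and 38.78 FPKM.

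Trpv6, the apical entry channel, was close to absent. The water mice had 0, 0, 0, 0 and 1 expected counts, the low PAC mice 2, 1, 1, 0 and 0, and the high PAC mice 1, 0, 0, 1 and 0. Over all 15 libraries this was 7 of 260794147 expected counts, and the 3 counts that an observed 0 still allows correspond to between 0.0569 and 0.0638 FPKM in these libraries. Every library lay under that floor, so no fold change is given, and a difference in Trpv6 was not detectable at this depth. Trpv5, the related channel of the kidney, was listed in no library, and Cacna1d, a voltage-gated calcium channel, had a mean of 1.13 FPKM in water mice and a log2 fold change of -0.18 (edgeR adjusted p = 0.474) for high PAC.

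Cyp24a1, the calcitriol-degrading enzyme, was likewise near 0. The water mice had 0 expected counts in all 5 libraries, the low PAC mice had 0, 1, 0, 0 and 0 and the high PAC mice 1, 0, 0, 1 and 1. The sum was 4 counts, and the floor of 3 counts stood between 0.0506 and 0.0568 FPKM. The 3 groups could not be told apart at this depth.

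Atp2b1, the basolateral calcium pump, was abundant and overlapped between the groups. It stood at 87.90, 80.12, 83.18, 56.19 and 54.54 FPKM in water mice, at 98.24, 101.75, 71.66, 61.37 and 69.93 in low PAC mice and at 93.93, 71.43, 65.61, 100.36 and 89.45 in high PAC mice. Each group held both mice with low and mice with high values, and the 3 ranges overlapped. Its log2 fold change was 0.12 ± 0.19 (SE) for high PAC (edgeR adjusted p = 0.786) and 0.10 ± 0.19 for low PAC (adjusted p = 0.983), with 95% intervals from -0.25 to 0.48 and from -0.27 to 0.46. With any 1 mouse left out the high PAC value lay between 0.02 (without water replicate 5) and 0.24 (without high PAC replicate 3). With the mean of the proximal small intestine markers as a covariate, added after the data were seen, both values changed sign, to -0.21 ± 0.17 (adjusted p = 0.65) and -0.19 ± 0.16 (adjusted p = 0.993).

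Slc8a1, the sodium/calcium exchanger, was low. Its values were 0.70, 1.56, 0.74, 1.52 and 1.64 FPKM in water mice, 1.63, 1.60, 1.56, 0.98 and 1.87 in low PAC mice and 1.37, 1.64, 1.10, 1.73 and 1.73 in high PAC mice. Water replicates 1 and 3 were the lowest of all 15. The log2 fold change was 0.22 ± 0.23 for high PAC (edgeR adjusted p = 0.662) and 0.27 ± 0.23 for low PAC (adjusted p = 0.976), and 0.08 and 0.13 without water replicate 1. Within groups Slc8a1 followed the smooth muscle markers, with r = 0.93 against the mean of the 10 genes of that list, as a description over 15 mice, and likewise r = 0.93 against the mesothelium markers and 0.90 against the enteric neuron and glia markers. With the smooth muscle mean as a covariate, an analysis added after the data were seen, its log2 fold changes were -0.16 ± 0.12 and -0.02 ± 0.11, both of opposite sign to the values without it (adjusted p = 0.507 and 1).

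Vdr, the receptor, had the highest mean FPKM of the 7, although S100g was above it in high PAC replicate 5, at 140.40 against 118.03 FPKM. For Vdr, the water mice had 98.90, 108.99, 117.78, 107.48 and 119.30 FPKM, the low PAC mice 105.26, 107.28, 112.79, 125.48 and 109.50, and the high PAC mice 99.74, 102.71, 80.28, 118.72 and 118.03. Replicate 3 of high PAC was the lowest and the groups otherwise overlapped. The log2 fold change was -0.18 ± 0.10 for high PAC (edgeR adjusted p = 0.412, interval -0.38 to 0.02) and -0.03 ± 0.10 for low PAC (adjusted p = 0.989). Without high PAC replicate 3 the high PAC value was -0.06. The low PAC value changed sign when FPKM were tested with limma, where it was 0.02.

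Rxra, its dimer partner, had the lowest pooled within-group SD of the 5 genes that passed the filter. In water mice Vdr varied less, with an SD of log2(FPKM + 0.1) of 0.11 against 0.124 for Rxra. Rxra had 34.8 ± 2.87 FPKM in water mice, 35.9 ± 2.40 in low PAC mice and 34.2 ± 3.69 in high PAC mice (SD, n = 5 each). The log2 fold change was -0.13 ± 0.10 for high PAC (edgeR adjusted p = 0.515), -0.03 without high PAC replicate 3, and -0.02 ± 0.10 for low PAC (adjusted p = 0.992), the latter turning to 0.02 with upper-quartile normalization, 0.004 with no filter on low counts and 0.04 with limma. An exact two-sided permutation test compared the means of log2(FPKM + 0.1), with a smallest possible p of 0.00794 for 5 mice against 5. This permutation test gave p between 0.222 and 0.992 for the 4 genes Atp2b1, Slc8a1, Vdr and Rxra over the 3 comparisons.

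By FPKM, Vdr exceeded Atp2b1 in 15 of 15 mice and Atp2b1 exceeded S100g in 14 of 15. The order of S100g and Rxra differed by group, S100g being above Rxra in 0 of 5 water mice, 2 of 5 low PAC mice and 4 of 5 high PAC mice. In water mice the 2 genes were separate, S100g reaching at most 15.12 FPKM and Rxra at least 30.03, and in both PAC groups their ranges overlapped. Rxra was above Slc8a1 in 15 of 15 mice, and Slc8a1 above Trpv6 in 15 of 15. Trpv6 and Cyp24a1 could not be ordered. Per mouse, the ratio of S100g to Atp2b1 FPKM had a median of 0.139 in water mice, 0.51 in low PAC mice and 0.803 in high PAC mice, with the highest value, 1.57, in the high PAC mouse with the most S100g.

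**Figure D2:**
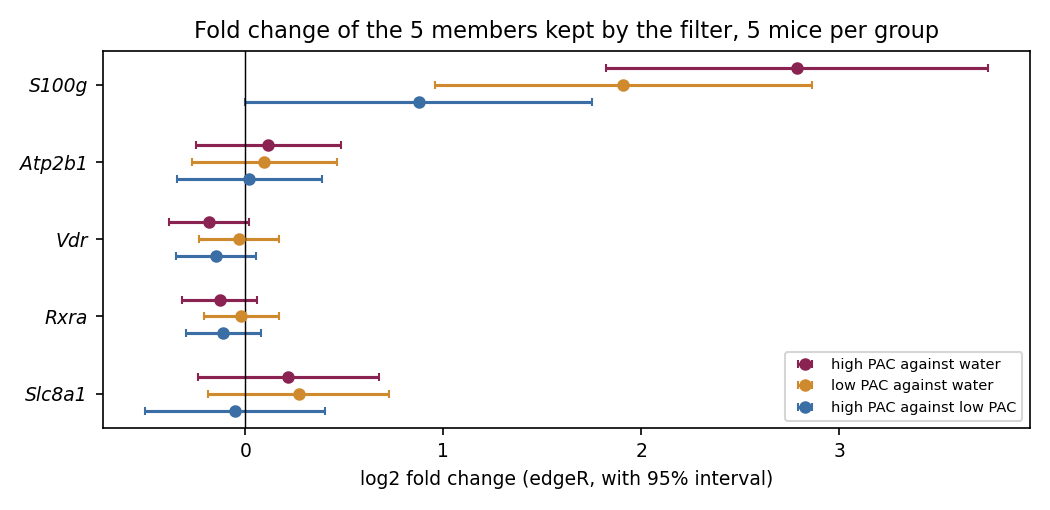
Log2 fold change from edgeR (x axis) with 95% intervals for the 5 genes that passed the filter, in 3 comparisons of 5 against 5 mice. The S100g values against water, by which it was chosen, are 2.79 and 1.91, and those of Atp2b1, Vdr, Rxra and Slc8a1 lie between -0.18 and 0.27 with intervals that include 0.

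Over all 14386 genes, edgeR's quasi-likelihood test with Benjamini-Hochberg adjustment at 0.05 called 2 genes in high PAC against water, or 0.0139% of those tested, both lower, and neither was among Atp2b1, Vdr, Rxra and Slc8a1. It called 0 genes in low PAC against water and 0 in high PAC against low PAC, a background of 0.0% each. At an unadjusted p under 0.05 the counts were 2128 genes (14.8%), 520 genes (3.61%) and 559 genes (3.89%), against 0 of the 4 members in each comparison. In high PAC against water, 4.37% of all genes were higher and 10.4% lower at an unadjusted p under 0.05 (628 and 1500 genes, but 1505 and 816 with upper-quartile normalization), and 50.5% of genes had a log2 fold change above 0, shares that serve as background for the counts of list genes given from here on. DESeq2 called 167, 2 and 0 genes and limma on FPKM 9, 0 and 0. In high PAC against water DESeq2 gave an adjusted p to 6577 of the 14386 genes, whereas edgeR adjusted over all of them. In high PAC against water the DESeq2 calls were 23 higher and 144 lower and the limma calls 7 higher and 2 lower. Genes for which every high PAC mouse lay above every water mouse made up 3.99% of all genes, and S100g was not among them because of replicate 2. For low PAC the share was 0.494% and included S100g, which the choice of S100g makes a description.

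S100g was next compared with the other members across mice, after subtracting each group's mean from log2(FPKM + 0.1) so that the differences between groups play no part. The relation was part of how the genes were chosen, so these correlations over 15 mice are descriptions without a p. The shares of genes with a higher r are likewise no test. Atp2b1 followed S100g, with Pearson's r = 0.66 and Spearman's rho = 0.72, and r = 0.81 without the 2 mice farthest from the S100g median, replicates 2 and 5 of high PAC. Of 12419 genes, 0.548% had a higher r, the median gene having -0.01 and the 97.5th percentile standing at 0.54. For each unit of log2 by which S100g departed from its group mean, Atp2b1 departed by 0.23.

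Rxra had r = 0.44 with S100g (rho 0.49, and 0.60 without the same 2 mice), Vdr 0.21 (rho 0.10) and Slc8a1 -0.21 (rho -0.34). With any 1 mouse left out, the r of Rxra ran from 0.28 (without high PAC replicate 5) to 0.69 (without high PAC replicate 2), that of Vdr from 0.015 (without high PAC replicate 5) to 0.32 (without water replicate 1) and that of Slc8a1 from -0.33 (without high PAC replicate 5) to -0.09 (without water replicate 1). A higher r than Rxra's was found for 6.02% of genes and a higher r than Vdr's for 23.0%, so the r of Vdr lay well inside the range of other genes. Between the other members, Vdr and Rxra had r = 0.55, Atp2b1 and Rxra 0.44 and Atp2b1 and Vdr 0.04. Trpv6 and Cyp24a1 had too few counts for a relation.

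**Figure D3:**
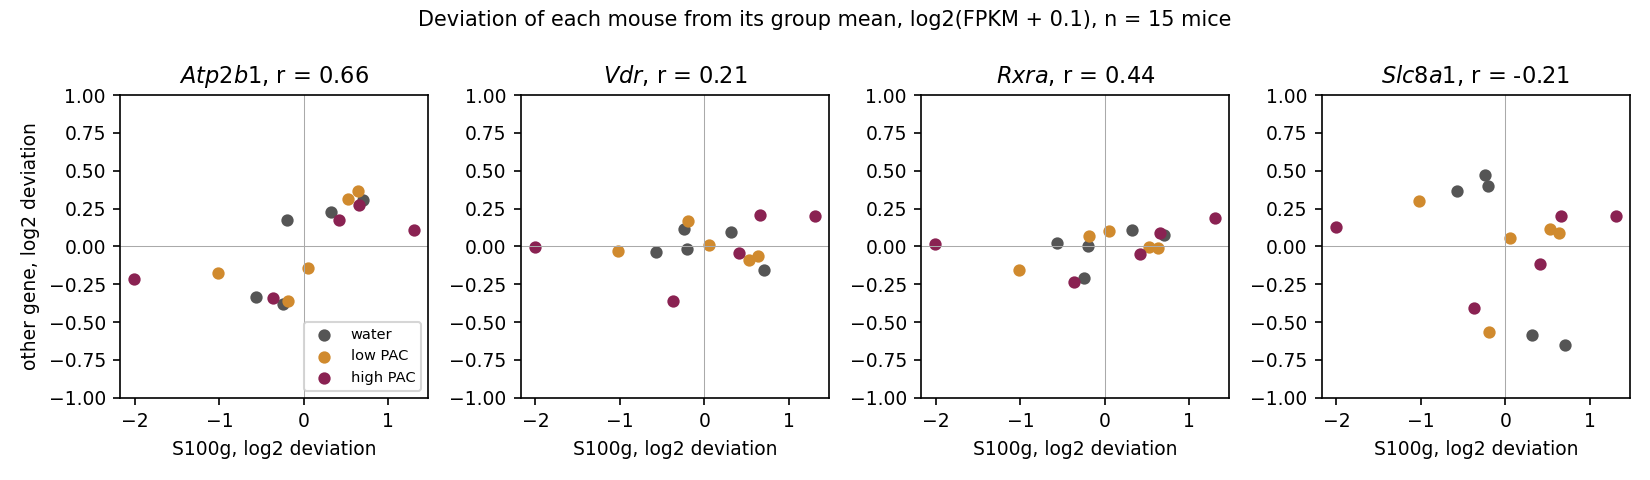
Deviation of each of 15 mice from its group mean on the scale log2(FPKM + 0.1), for S100g (x axis) and 4 other members (y axis, same range in each panel). Atp2b1 rises with S100g (r = 0.66), Rxra less so (r = 0.44), and Vdr and Slc8a1 show no clear slope (r = 0.21 and -0.21).

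The 5 genes most like S100g within groups were Rhov, a small GTPase (r = 0.88), Hoxb5, a homeobox gene (0.83), Pias2, a SUMO ligase (0.80), B4galt7, a galactosyltransferase of proteoglycan synthesis (0.79), and Lamb3, a laminin chain (0.78). Without replicates 2 and 5 of high PAC their r was 0.73, 0.70, 0.57, 0.59 and 0.74, below the 0.81 of Atp2b1 over the same mice. Among the lowest r were those of Sept10 (-0.80) and Ccdc138 (-0.79). Homeobox genes of the HOX clusters set position along the gut, as does Gata4, a transcription factor of the proximal small intestine that is silent in the distal ileum. Gata4 had r = -0.73 with S100g, and 8 of 12419 genes had a lower value.

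The group values of these positional genes are given beside those of S100g, although no difference between groups passed the adjusted test for Gata4, Hoxb5 or Hoxb9. Gata4 stood at 4.58, 1.69, 4.04, 12.46 and 12.67 FPKM in water mice, at 0.48, 0.91, 1.97, 6.23 and 4.19 in low PAC mice and at 0.58, 4.23, 0.75, 0.72 and 0.39 in high PAC mice. The high PAC mouse with the least S100g, replicate 2, was also the high PAC mouse with the most Gata4, and the mouse with the most S100g had the least. Picked after the values were seen, 4 mice with Gata4 between 4.04 and 4.58 FPKM, 2 of water, 1 of low PAC and 1 of high PAC, had S100g at 15.12, 11.56, 17.33 and 14.03 FPKM. Water replicate 2 and low PAC replicate 3, with Gata4 at 1.69 and 1.97, had S100g at 8.03 and 36.58.

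Hoxb5 stood at 3.71, 4.39, 4.46, 3.72 and 3.12 FPKM in water mice, at 7.62, 8.16, 6.14, 6.36 and 5.44 in low PAC mice and at 9.06, 5.66, 6.94, 8.87 and 9.54 in high PAC mice. Every PAC mouse was above every water mouse, as was so for 3.99% of genes in the high PAC and 0.494% in the low PAC comparison. Its log2 fold change was 0.95 for high PAC (edgeR adjusted p = 0.0756) and 0.74 for low PAC (adjusted p = 0.976). Hoxb9, another gene of the same cluster, had 6.80 ± 4.98 FPKM in water, 15.8 ± 5.27 in low PAC and 18.0 ± 4.77 in high PAC mice (SD, n = 5 each) and r = 0.51 with S100g. Within groups Atp2b1 had r = -0.78 against Gata4, -0.55 against Lct, 0.77 against Hoxb5, 0.75 against Hoxb9, 0.88 against Slc10a2 and 0.29 against Fabp6.

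Over the whole list of 11 proximal small intestine markers tested, 9 were lower and 2 higher in high PAC mice than in water mice, 3 of them at an unadjusted p under 0.05 (Gata4 and Apoa4 among them) and 0 after adjustment. The median log2 fold change for high PAC was -0.25, against 0.002 over all genes. In low PAC mice 1 was higher and 10 lower than in water mice, with a median of -0.162 against -0.014 over all genes. The list's summed level ranged from 1224 to 1853 FPKM in water, from 884 to 1585 in low PAC and from 1139 to 1452 in high PAC mice. The mean of the list had r = -0.57 with S100g and -0.70 with Atp2b1. Of 9 distal ileum markers tested, 3 were higher and 6 lower in high PAC mice (5 and 4 with upper-quartile normalization, 6 and 3 with limma), and 7 were higher and 2 lower in low PAC mice with a median of 0.08, the summed level, most of it Fabp6, ranging from 6120 to 9410, from 8548 to 10490 and from 8814 to 13180 FPKM. With the proximal mean as a covariate, added after the data were seen, the S100g log2 fold change was 2.02 ± 0.55 for high PAC and 1.26 ± 0.49 for low PAC, and with the distal mean it was 2.55 ± 0.54 and 1.69 ± 0.53. The part of tissue position in the S100g values was not tested beyond these values.

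**Figure D4:**
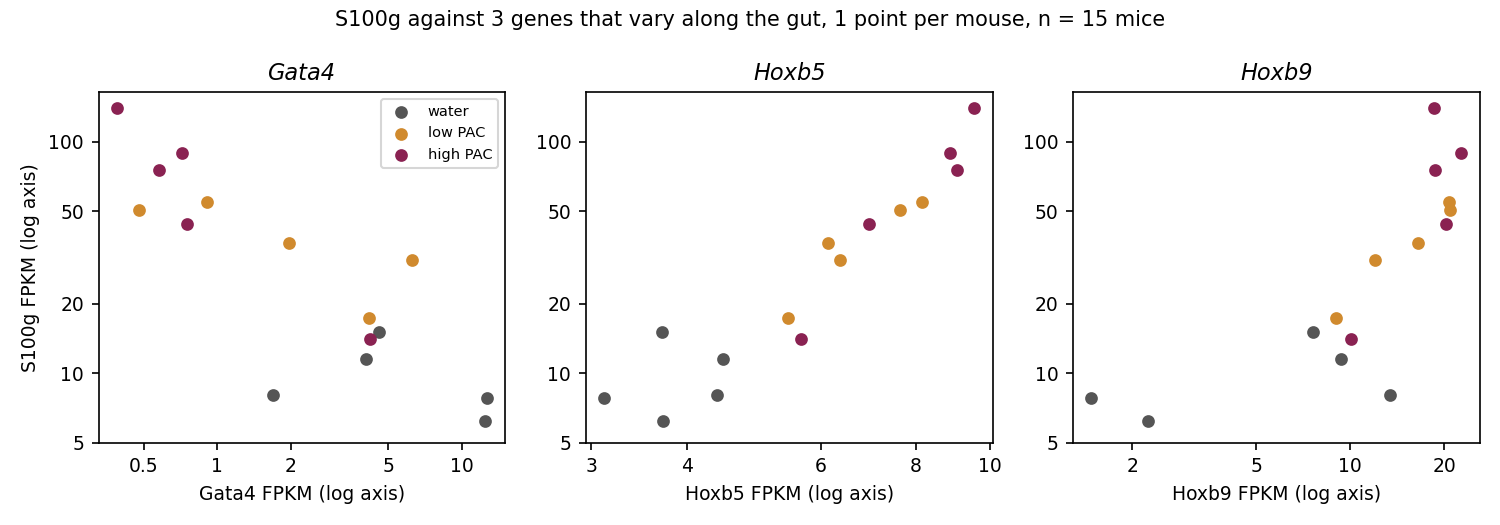
S100g FPKM (y axis, log scale) against the FPKM of Gata4, Hoxb5 and Hoxb9 (x axes, log scale) with 1 point per mouse, coloured by group. S100g is lower where Gata4 is higher (r = -0.73 within groups) and higher where Hoxb5 is higher (r = 0.83), and high PAC replicate 2 lies among the water mice in the Gata4 panel.

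Of the cell type markers, a single gene, Slc28a2, passed the adjusted test. All 12 enterocyte markers were lower in high PAC mice than in water mice, 8 of them at an unadjusted p under 0.05, as were 10.4% of all genes, and 0 after adjustment, with a median log2 fold change of -0.38. Of 8 villus tip markers, all lower, 7 were so at an unadjusted p under 0.05, and Slc28a2, a nucleoside transporter of villus cells, fell by 1.34 on the log2 scale in high PAC mice (edgeR adjusted p = 0.00449). The marker lists were written with earlier results of these data known, so such counts describe the lists and are no independent support. All 10 smooth muscle markers were higher, 0 at an unadjusted p under 0.05, with a median of 0.42 and summed levels from 338 to 1075 FPKM in water, 679 to 1172 in low PAC and 799 to 1285 in high PAC mice. The crypt and proliferation list was higher for 10 of 10 genes, 3 at an unadjusted p under 0.05, and the neuron and glia list for 11 of 11, 3 at an unadjusted p under 0.05, against 4.37% of all genes. The 6 tested mesothelium markers were all higher and the 6 tested caecum and colon markers all lower (5 of 6 with upper-quartile normalization, 3 of 6 with limma), with 0 and 1 at an unadjusted p under 0.05. Of 12 Peyer's patch B cell markers, 12 were lower in low PAC mice than in water mice with a median of -1.17, and in high PAC mice 9 were higher and 3 lower with a median of 0.10 (0 and 12 with limma), 0 of them at an unadjusted p under 0.05 in either comparison. They summed to between 8.21 and 291 FPKM over the 15 mice, and their mean had r = 0.035 with S100g. In such whole tissue samples, fewer cells of a type and less RNA per cell cannot be told apart. S100g is made by enterocytes, and within groups it had r = 0.09 with the mean of the enterocyte markers and -0.23 with that of the smooth muscle markers. Their part in the S100g values was not tested.

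The remaining genes of the pathway were described from lists by role, none of which held a gene called after adjustment. S100g itself is left out of the counts and medians of its lists. Among the 4 other cytosolic calcium binding proteins tested, 2 were higher and 2 lower in high PAC mice (3 higher with upper-quartile normalization), and 1 had an unadjusted p under 0.05, Calb2, encoding calretinin, with a log2 fold change of 0.62 ± 0.23 (edgeR adjusted p = 0.265). Calb1, the gene of the larger calbindin of the kidney, had at most 4 counts. Of the 8 genes of basolateral exit, 7 were higher and 1 lower, 0 at an unadjusted p under 0.05, with a median of 0.22, and Atp2b4, another plasma membrane calcium pump, was at 0.31 ± 0.30.

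Of 13 genes of calcium stores and store-operated entry, 7 were higher and 6 lower with a median of 0.03 (10 and 3 with upper-quartile normalization, 11 and 2 with limma). Itpr3, an inositol trisphosphate receptor, had 20.9 ± 1.10 FPKM in water and 17.2 ± 1.43 in high PAC mice (SD, n = 5 each) and a log2 fold change of -0.38 ± 0.08 (edgeR adjusted p = 0.133), the 1 gene of this list with an unadjusted p under 0.05. Among the 10 tested genes of the vitamin D receptor and its partners, 2 were higher and 8 lower with a median of -0.17. The nuclear receptor coactivators Ncoa1, Ncoa2 and Ncoa3 had log2 fold changes of -0.21, -0.23 and -0.21 with unadjusted p under 0.05 (adjusted p = 0.215, 0.275 and 0.272), against 10.4% of all genes.

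In vitamin D metabolism and uptake, Cyp3a11 and Cyp3a13, cytochromes that also oxidize vitamin D, had log2 fold changes of -1.25 ± 0.39 and -0.61 ± 0.17 (edgeR adjusted p = 0.215 and 0.193). Cyp3a13 averaged 198 FPKM in water, 160 in low PAC and 138 in high PAC mice. Lrp2, the uptake receptor megalin, was at 1.37 ± 0.64 from levels near 0.02 FPKM (adjusted p = 0.337), and the other 4 tested genes of this list had unadjusted p above 0.05. Cyp27b1, which makes calcitriol, had at most 7 counts in a library.

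Among 9 tested vitamin D target genes of the intestine other than S100g, 3 were higher and 6 lower in high PAC mice with a median of -0.06, which turned to 0.03 with limma, and 1 had an unadjusted p under 0.05, Cyp3a11. Ranked by relation to S100g in place of group difference, 3 of the 8 other targets with a mean of at least 1 FPKM lay above the 97.5th percentile of all genes, which leaves 2.5% of genes above it. They were Atp2b1, Slc30a10, a manganese transporter (r = 0.61), and Cldn2, a claudin of the calcium permeable tight junction (r = 0.60), while the median r of the 8 was 0.25. Cldn2 had 87.0 ± 19.0 FPKM in water, 104 ± 16.6 in low PAC and 117 ± 22.4 in high PAC mice (SD, n = 5 each), with a log2 fold change of 0.33 ± 0.17 for high PAC (edgeR adjusted p = 0.38).

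Of the 6 genes of the paracellular route, 1 was higher and 5 lower with a median of -0.21, and Cldn15, Tjp1 and Ocln had unadjusted p under 0.05 with log2 fold changes of -0.27, -0.26 and -0.22, against 10.4% of all genes lower at that threshold. In phosphate and magnesium transport, 3 of 9 were higher and 6 lower, Cnnm4 and Alpi with unadjusted p under 0.05 at -0.29 and -0.38. Trpm6, the magnesium channel, had r = 0.73 with S100g and 0.86 with Atp2b1, and its log2 fold change for high PAC was 0.06 (edgeR adjusted p = 0.925). Of 9 hormone receptors with calcium genes among their targets, 6 were higher and 3 lower, and the prolactin receptor Prlr and the glucocorticoid receptor Nr3c1 were at -0.27 and -0.21 with unadjusted p under 0.05. Of 9 transcription factors of enterocyte genes, 3 were higher and 6 lower, and Hnf4g, Klf4 and Hnf4a had log2 fold changes of -0.40, -0.38 and -0.25 at unadjusted p under 0.05.

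In the S100 family, to which S100g belongs by its EF hands, 8 of the 9 other tested genes were higher in high PAC mice (9 of 9 with upper-quartile normalization), with a median of 0.37 against 0.002 over all genes. Those with an unadjusted p under 0.05 were 4, S100a1 (0.38 ± 0.11), S100a6 (0.37 ± 0.15), S100a13 (0.57 ± 0.16) and S100b (0.77 ± 0.27), with edgeR adjusted p between 0.193 and 0.275. S100a10 and S100a11, the most abundant, had 654 ± 44.5 and 207 ± 12.8 FPKM in water mice (SD, n = 5) and log2 fold changes of -0.02 and 0.06. The median r of 8 relatives with S100g within groups was 0.03, the highest being 0.29 for S100a11. S100b is a glial marker as well and was counted in both lists.

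**Figure D5:**
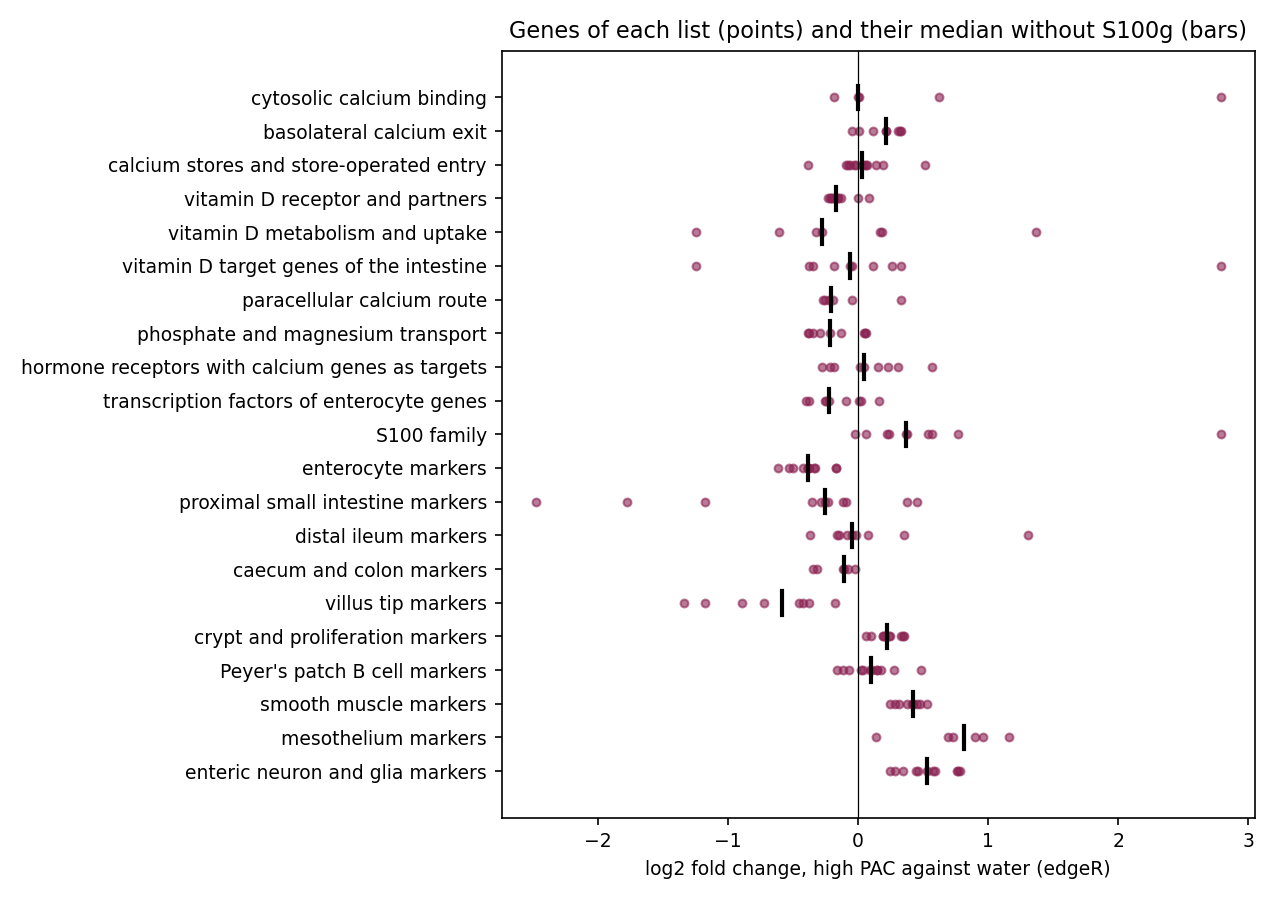
Log2 fold change for high PAC against water (x axis, edgeR) of every tested gene (points) of 21 lists of at least 4 tested genes, with the median of each list's genes other than S100g as a bar. S100g is the point at 2.79 in 3 lists, Gata4 the point at -2.48, and most pathway genes lie near 0, with enterocyte and villus tip markers to the left and smooth muscle and neuron markers to the right.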

How the data were processed

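Total RNA of 15 mice was sequenced by the authors on a BGI platform as paired reads. The study's methods name SOAPnuke for read filtering and Bowtie2 for alignment to mm10, and the submitters' processing notes name HISAT and DESeq2. The counting tool is not given in the sources used here. The deposited files hold an expected count and an FPKM per gene and mouse as the authors made them, and genes absent from a file, whose lowest listed FPKM is 0.01, were taken as 0.

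Expected counts were rounded to whole numbers and tested in edgeR 4.0.16 (R 4.3.3) with its quasi-likelihood test, TMM factors, a filter on low counts and 1 fit over the 3 groups, with Benjamini-Hochberg adjustment over 14386 genes. The study used NOISeq, which was not rerun. Standard errors were derived from the F statistic and 95% intervals are 1.96 of them. Correlations used log2(FPKM + 0.1) with group means subtracted, over genes with a mean of at least 1 FPKM. DESeq2 1.42.0, limma 3.58.1, other normalizations and filters, a replicate block and leaving out each mouse were alternatives. Fits were tested on simulated data. Floors cover counting error only, whereas the standard errors and intervals also include the spread between mice that edgeR estimated. The members and lists were chosen with earlier results of these data known. From each list, genes called were named, otherwise up to 3 with the largest change for high PAC, and beside them the genes most and least like S100g. Names outside that rule (among them Gata4 in the relation, Hoxb9 by mouse, Slc10a2, Trpm6, Slc30a10, Ctps2) were chosen after their values were seen. The promoter table held 6 of the 7 genes, by symbol. A few genes that these rules would name are not reported here.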

Additional observations from a re-analysis of the deposited data

How the results depend on the processing

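The S100g log2 fold change stayed between 2.495 and 3.02 for high PAC against water and between 1.26 and 2.11 for low PAC against water over the other tools, scalings, filters, pseudocounts and covariates, apart from 2.02 for high PAC with the proximal covariate, and between 2.39 and 3.05 and between 1.72 and 2.15 with any 1 mouse left out. High against low PAC ran from 0.484 to 1.138. The number of genes called is less stable. For high PAC against water it was 2, and 167 with DESeq2, 9 with limma at either pseudocount, 1, 4 and 2 with the proximal, distal and smooth muscle covariate, and 2 to 11 with any 1 mouse left out (4 without water replicate 2, 11 without high PAC replicate 2). For low PAC against water it was 0, and 2 with DESeq2 and 0 to 1 with any 1 mouse left out. The cause was not tested.

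The small log2 fold changes of the other members, none with an adjusted p under 0.05 in any alternative, changed sign in places. For low PAC against water, Vdr turned to 0.021 with limma at either pseudocount, and Rxra to 0.015 with upper-quartile normalization, 0.004 with no filter, 0.044 and 0.043 with limma at a pseudocount of 0.1 and 1, and 0.013 with the smooth muscle covariate. With the proximal covariate Atp2b1 was at -0.208 for high PAC, -0.19 for low PAC and -0.018 for high against low PAC, and with the distal covariate at -0.036 and -0.054 for high and low PAC against water. Slc8a1 was at -0.162 and -0.022 with the smooth muscle covariate. With any 1 mouse left out, Atp2b1 ranged from -0.021 to 0.189 for low PAC and from -0.066 to 0.137 for high against low PAC, Rxra from -0.082 to 0.023 for low PAC, and Slc8a1 from -0.178 to 0.056 for high against low PAC. The cause was not tested.

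The replicate numbers do not pair the mice. Of 15 same-numbered pairs 5 correlated above 0.1. Each water mouse was matched to each PAC group and each low PAC mouse to the high PAC group. In 2 of these 15 comparisons the best match had the same number. With the replicate block S100g was at 2.74 and 1.97 and the high PAC count was 2.

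The r of S100g with Atp2b1 was 0.63 to 0.75 with any 1 mouse left out and 0.81 without the 2 farthest mice, and that with Rxra was 0.28 to 0.69.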
